A study of Mus musculus with 12 samples.

Results

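The 10 genes described here are interferon-stimulated effectors that act directly against viruses: Mx1, Mx2, Ifit1, Ifit2, Ifit3, Rsad2, Cmpk2, Bst2, Isg20 and Rtp4. They were taken by symbol from a table of 23472 genes, all 10 were found, and all 10 were among the 13184 genes that passed the filter on low counts. The table holds raw read counts of poly-A RNA from LT-HSCs (long-term haematopoietic stem cells), the rare marrow cells that sustain blood formation, of C57BL/6 mice. Of the 12 libraries, 6 were titled Jak1 KO and came from cre-positive animals, and 6 were titled wt and came from cre-negative animals. Both groups had received 4 doses of poly(I:C), a synthetic double-stranded RNA that induces interferon, and marrow was taken 4 to 6 weeks later. In each genotype replicates 1 to 3 carry a VD name and replicates 4 to 6 a ZL name, and what separates these name sets is not stated. The descriptions of the VD libraries carry the tag MXplus for Jak1 KO and MXminus for wt, and those of the ZL libraries carry no such tag. The labels do not spell out what MX stands for or which promoter drives cre, nor the age of the mice, nor whether each library came from a separate animal. The p-values therefore measure the spread between these libraries, which may be technical. Because only the Jak1 KO animals carried cre, effects of cre and of a Jak1 deletion cannot be told apart.

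Type I interferon binds a receptor whose chains carry the kinases JAK1 and TYK2. These phosphorylate STAT proteins, which join IRF9 to form a complex that binds the interferon-stimulated response element (ISRE) of its target genes. The products of those genes attack different steps of viral growth, and stem cells are known to express many of them without an infection. In designs of this kind cre is usually driven by the interferon-responsive Mx1 promoter.

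Promoter sequence gave a view of these genes that is independent of the counts. RefSeq windows on GRCm38.p6, from 250 bases before to 50 bases after an annotated start, were at hand for 7 members in 10 windows, and Rtp4, Mx1 and Mx2 had none there. Each window was searched on both strands for the ISRE core (GAAA, any pair of bases NN, then GAAA) and for the gamma-activated site core (TTC, NNN, then GAA), an element bound by STAT dimers. The ISRE core occurred in the windows of 4 of these 7 members (Ifit1, Ifit3, Rsad2 and Bst2). It occurred for 3.99% of all 27025 genes with windows, and in 3.44% of all 32851 windows. Ifit1 and Ifit3 each held a TTTCACTTTC and a TTTCAGTTTC match, the ISRE core read on the opposite strand. The stretches below run from 160 to 31 bases before the start, 5′ to 3′ on the strand of the gene, and are shown because they allow these ISRE cores to be compared. Capitals mark the ISRE core matches, of which the 2 in Bst2 overlap.
Ifit1, chr19:34640729-34640858, plus strand: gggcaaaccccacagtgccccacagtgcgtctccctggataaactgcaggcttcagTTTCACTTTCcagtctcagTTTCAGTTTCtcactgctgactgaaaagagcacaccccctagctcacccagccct
Ifit3, chr19:34583369-34583498, plus strand: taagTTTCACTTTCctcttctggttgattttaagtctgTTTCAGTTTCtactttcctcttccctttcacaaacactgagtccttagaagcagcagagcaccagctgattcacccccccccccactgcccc
Rsad2, chr12:26456483-26456612, minus strand: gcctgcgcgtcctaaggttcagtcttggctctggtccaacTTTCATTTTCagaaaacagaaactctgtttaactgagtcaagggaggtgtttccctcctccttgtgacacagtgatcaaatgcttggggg
Bst2, chr8:71537503-71537632, minus strand: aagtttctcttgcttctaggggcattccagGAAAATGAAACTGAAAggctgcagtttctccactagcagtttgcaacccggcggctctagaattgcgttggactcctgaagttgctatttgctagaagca
The ISRE core letters were not in the windows of Ifit2 (2 windows), Isg20 (3 windows) and Cmpk2 (1 window). The gamma-activated site core was in 1 window each of Bst2, Isg20 and Ifit2, against 8.30% of all windows. In Bst2 its match, TTCCAGGAA, starts 136 bases before the start and overlaps the first ISRE core.

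Depth ranged from 8989965 to 28701855 counts per library. Between 14.8% and 22.6% of all counts fell on the ribosomal RNA gene Rn45s in the VD set, and between 0.511% and 0.950% in the ZL set. Levels are given as normalised CPM, read counts divided by TMM-scaled library sizes. LT-HSC markers (14 genes, 14 tested) summed to 2715 to 5483 CPM in Jak1 KO and 3048 to 5582 CPM in wt libraries, with 0 past edgeR's threshold. Megakaryocyte markers summed to 609 to 883 CPM in Jak1 KO and 1294 to 1775 CPM in wt libraries, with 1 of 7 lower and none at 0 counts in either group. Bst2 is a surface marker of plasmacytoid dendritic cells and plasma cells. The 10 plasmacytoid dendritic markers (5 tested) summed to 165 to 234 CPM in Jak1 KO and 152 to 242 CPM in wt libraries. The 7 plasma cell markers (4 tested) summed to 113 to 236 CPM in Jak1 KO and 107 to 298 CPM in wt, and in neither list did a gene pass the threshold or stand at 0 counts throughout a group. The part of these cells in the results was not tested. Jak1 stood at 422 ± 160 CPM in Jak1 KO and 373 ± 45.3 CPM in wt libraries (SD, n = 6 each). Reads from exons outside a conditional deletion still count towards Jak1, so this value does not check the titles, and Jak1 KO is used here as the titles use it. Jak1 KO 4 stood farthest from the other libraries on the first principal component (84.8, against -66.7 to 17.0 for the other 11). Its deviations from the ZL mean fell with exon length across 13064 genes (Spearman -0.52), so results that turn on it are given with and without it. On the other side of that component stood wt 6 (-66.7) and Jak1 KO 6 (-49.8), whose deviations rose with exon length (Spearman 0.38 and 0.45), and these 3 ZL libraries were also left out together. Of the wt libraries, wt 6 was the highest for Mx1, Mx2, Ifit1, Ifit2, Ifit3 and Rsad2.

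Of the 10 members, 5 were lower in Jak1 KO libraries (Rtp4, Ifit1, Ifit3, Mx2 and Mx1), 0 were higher and 5 did not pass edgeR's adjusted p of 0.05. The same test called 0.432% of all 13184 genes lower and 0.440% (58 genes) in either direction. At an unadjusted p under 0.05, 8 members were lower, against 2.66% of genes. DESeq2 called 7 members lower (0.743% of genes) and limma-voom 7 (1.32%), and 5 were lower with replicate number as a block (0.531%). All 10 fold changes were below 0, as were 50.9% of those of all genes, and the members' median log2 fold change was -1.25 against -0.0060 for all genes tested. In bulk RNA fewer expressing cells and less RNA per cell cannot be told apart. In 6 members (Mx1, Mx2, Ifit1, Ifit3, Rsad2 and Rtp4) the Jak1 KO libraries were all lower than the wt libraries within both name sets, an arrangement found in 0.963% of all genes tested. Within VD alone 8 members had this arrangement (13.2% of genes), all but Ifit2 and Cmpk2, and within ZL alone 8 (2.34%), all but Bst2 and Isg20. Over all 12 libraries regardless of name set, 3 members (Mx1, Mx2 and Ifit3) were separated, against 0.356% of genes.

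**Figure D1:**
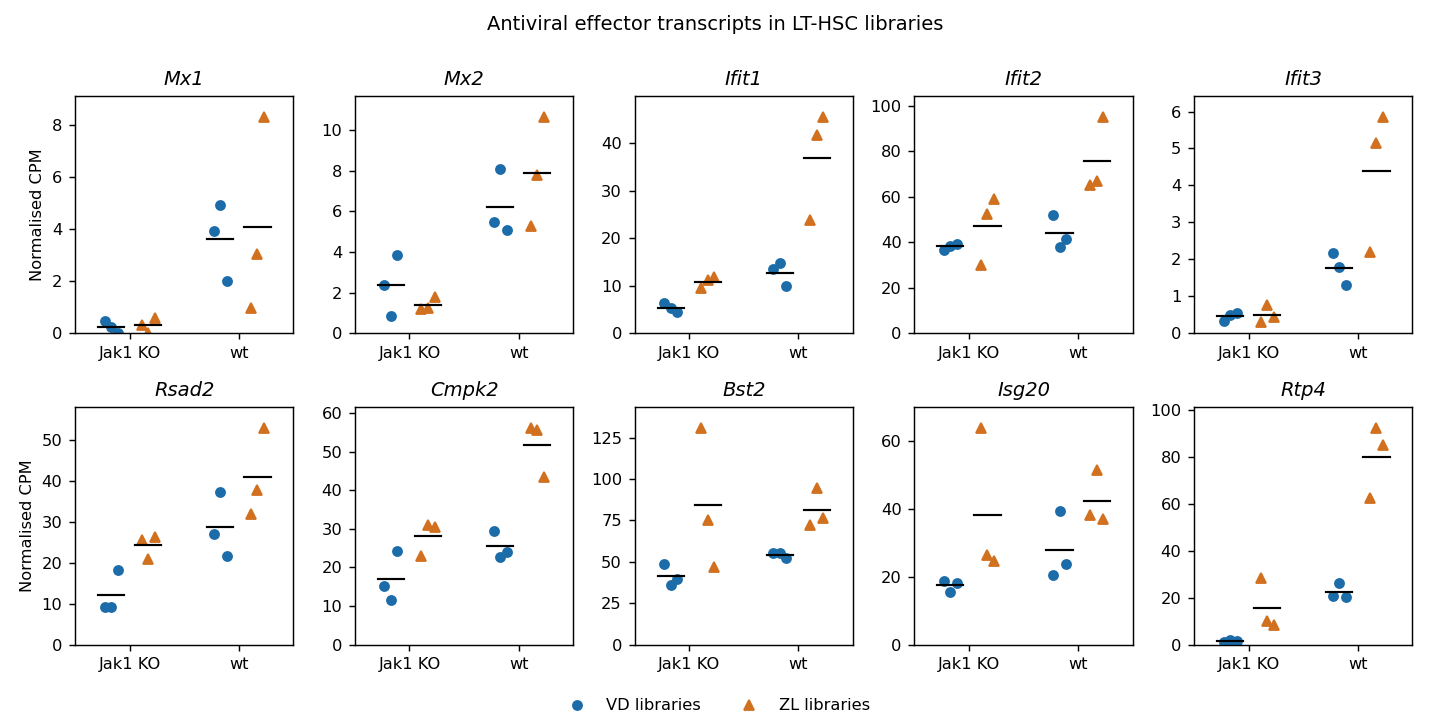
Normalised CPM of each gene in every library, with Jak1 KO left of wt, VD libraries as circles and ZL libraries as triangles, and a bar at the mean of each name set. The groups are apart within both name sets for 6 genes, while the Jak1 KO 4 point lies above every wt point for Bst2 and Isg20.

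The Mx genes encode dynamin-like GTPases, of which mouse Mx1 acts in the nucleus against influenza viruses and Mx2 in the cytoplasm against vesicular stomatitis virus. Both lie on chromosome 16, Mx1 at chr16:97447035-97462907 on the minus strand and Mx2 at chr16:97535308-97560900 on the plus strand, 72400 bases apart. C57BL/6 mice are known to carry defective alleles of both, and RefSeq lists both as transcribed pseudogenes, so these counts report transcript and not a working protein. Mx1 had 6, 2, 0, 4, 0 and 15 raw counts in Jak1 KO 1 to 6, against 58, 44, 23, 25, 91 and 224 in wt 1 to 6. This came to 0.270 ± 0.244 normalised CPM in Jak1 KO and 3.86 ± 2.58 in wt (SD, n = 6 each). The groups did not overlap, the highest Jak1 KO library being at 0.597 CPM and the lowest wt library, wt 4, at 0.969. For the libraries without a count, Jak1 KO 3 and Jak1 KO 5, a floor of 3 counts allows up to 0.281 and 0.0951 CPM, which covers counting error only. By edgeR Mx1 was 13.9-fold lower, at a log2 fold change of -3.80 (SE 0.77, adjusted p = 0.0498).

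Mx2 had 30, 7, 41, 16, 39 and 45 raw counts in Jak1 KO 1 to 6 and 81, 72, 58, 136, 234 and 287 in wt 1 to 6. Its level was 1.89 ± 1.1 CPM in Jak1 KO and 7.05 ± 2.18 CPM in wt libraries, with no overlap between 0.853 to 3.84 and 5.07 to 10.6 CPM. By edgeR the log2 fold change was -1.93 (SE 0.37, adjusted p = 0.0355), a level 3.82-fold lower. Both calls were close to the threshold. When libraries were left out 1 at a time, Mx1 had an adjusted p under 0.05 only in the fit lacking wt 4 (edgeR, up to 0.142 in the others). Mx2 had one only in the fits lacking Jak1 KO 3 or wt 3 (up to 0.137 in the others). In those fits the log2 fold change stayed between -4.36 and -3.28 for Mx1 and between -2.23 and -1.76 for Mx2. Mx1 and Mx2 are related in sequence, and how reads that match both were counted is not given in the sources used here.

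The IFIT proteins are built of tetratricopeptide repeats and bind RNA. Ifit1 recognises viral RNA ends that lack the host's cap methylation, Ifit2 limits neurotropic viruses in mice, and Ifit3 belongs to the same family. The 3 genes sit in a cluster on the plus strand of chromosome 19, Ifit2 at chr19:34550694-34576419, Ifit3 at chr19:34583531-34588731 and Ifit1 at chr19:34640871-34650009. Ifit1 fell to 6.31, 5.36 and 4.49 CPM in the VD Jak1 KO libraries, against 13.6, 14.8 and 9.87 CPM in the VD wt libraries. The ZL libraries were at 9.57, 11.2 and 11.7 CPM in Jak1 KO and at 23.7, 41.6 and 45.4 CPM in wt. Jak1 KO was lower throughout each set, although the ZL Jak1 KO range reached into the VD wt range. By edgeR Ifit1 was 2.86-fold lower, at a log2 fold change of -1.51 (SE 0.21, adjusted p = 0.0026), and it passed in each of the 12 fits lacking 1 library (up to 0.0149).

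Ifit3 was counted far less often, with 4, 4, 6, 4, 24 and 11 raw counts in Jak1 KO 1 to 6 and 32, 16, 15, 57, 155 and 158 in wt 1 to 6. Its level was 0.478 ± 0.17 CPM in Jak1 KO and 3.08 ± 1.91 CPM in wt, and the groups did not overlap (highest Jak1 KO library 0.761, lowest wt library 1.31). By edgeR it was 6.02-fold lower, at a log2 fold change of -2.59 (SE 0.43, adjusted p = 0.0102), and it too passed in each of the 12 fits (up to 0.0433). Leaving out Jak1 KO 4, Jak1 KO 6 and wt 6 together gave an edgeR adjusted p of 0.158 for Ifit3 at a log2 fold change of -2.03.

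Ifit2 showed a smaller difference that did not pass the test. In the VD set it was at 36.7, 38.5 and 39.2 CPM in Jak1 KO and at 52.1, 38.0 and 41.5 CPM in wt, ranges that overlap. Its ZL values were 29.9, 52.4 and 59.1 CPM in Jak1 KO, below all of 65.2, 67.0 and 94.9 CPM in wt. Its log2 fold change was -0.44 (SE 0.19, 95% interval -0.86 to -0.03, edgeR adjusted p = 0.908). Close relatives in the same cluster had few counts. Ifit1bl1 (in the table under its older symbol, as are the other relatives) was at 1.62 CPM in Jak1 KO and 3.46 CPM in wt, and Ifit1bl2 at 0.763 and 1.77 CPM. Neither passed the test (edgeR adjusted p = 0.945 for both), and Ifit3b was too low to be tested over the 12 libraries. Reads shared between these relatives may have been split or lost, so the separate values of Ifit1 and Ifit3 are uncertain to that extent.

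The Ifit genes of the cluster differed among themselves in the size of their genotype difference. The log2 difference between each pair of members within 100000 bases was compared between genotypes by an exact two-sided permutation test of libraries relabelled within name sets, for 5 pairs chosen by position after the values were known. Ifit3 minus Ifit2 was -6.20 ± 0.34 in Jak1 KO and -4.37 ± 0.47 in wt libraries on the log2 CPM scale (SD, n = 6 each). The difference was -1.83 (exact permutation p = 0.005 over 400 relabelings, the smallest they can give, and 0.0125 after Benjamini-Hochberg adjustment over the 5 pairs). Ifit1 minus Ifit2 differed by -1.01 (exact permutation p = 0.005, adjusted 0.0125) and Ifit3 minus Ifit1 by -0.82 (p = 0.015, adjusted 0.025). In these 12 libraries the genotype difference was thus larger for Ifit3 and Ifit1 than for Ifit2, and larger for Ifit3 than for Ifit1. The low Ifit3 counts and the reads that relatives may share, both given above, limit these comparisons. The pairs were not compared without Jak1 KO 4, Jak1 KO 6 and wt 6. Mx1 minus Mx2 differed by -1.50 (exact permutation p = 0.045, adjusted 0.0563) and did not hold after adjustment. Rsad2 minus Cmpk2 was -0.34 ± 0.30 in Jak1 KO and -0.11 ± 0.55 in wt (difference -0.23, exact permutation p = 0.41, adjusted 0.41).

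Rsad2 encodes viperin, a radical SAM enzyme that turns CTP into a chain terminator of viral RNA synthesis, and Cmpk2 encodes a mitochondrial nucleotide kinase that supplies such nucleotides. The genes point away from each other on chromosome 12, Rsad2 at chr12:26442746-26456452 on the minus strand and Cmpk2 at chr12:26469204-26479837 on the plus strand, 12751 bases apart. Rsad2 was at 9.18, 9.26 and 18.2 CPM in the VD Jak1 KO libraries, against 27.0, 37.3 and 21.6 CPM in VD wt. Among ZL libraries it was at 25.6, 20.9 and 26.3 CPM in Jak1 KO and at 32.0, 37.8 and 52.9 CPM in wt. The groups were apart within both sets, yet the log2 fold change of -0.99 (SE 0.23) did not pass (edgeR adjusted p = 0.113, unadjusted 0.000705). DESeq2 (adjusted p = 0.0138) and limma-voom (0.00393) did call Rsad2 lower.

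Cmpk2 was at 15.1, 11.5 and 24.2 CPM in VD Jak1 KO and at 29.6, 22.7 and 24.1 CPM in VD wt libraries. The ZL values were 23.0, 31.1 and 30.4 CPM in Jak1 KO and 56.0, 55.6 and 43.4 CPM in wt. The groups were apart in the ZL set and overlapped in the VD set, where Jak1 KO 3 exceeded 2 wt libraries. The log2 fold change of Cmpk2 was -0.73 (SE 0.19, edgeR adjusted p = 0.242), and the gene was called by DESeq2 (0.0402) and limma-voom (0.00881). Of the 12 edgeR fits lacking 1 library, only the 1 without Jak1 KO 3 called Cmpk2 (log2 fold change -0.90, adjusted p = 0.0481, up to 0.649 in the others). Since Jak1 KO 3 holds the highest VD Jak1 KO value of Cmpk2, leaving it out moves the fold change downwards by construction.

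Bst2 and Isg20 showed no difference that passed the test. Bst2 encodes tetherin, which holds budding enveloped virions at the cell surface, and Isg20 encodes an exonuclease that degrades RNA. Bst2 lies at chr8:71534255-71537456 on the minus strand and Isg20 at chr7:78913424-78920396 on the plus strand. Bst2 was at 48.9, 36.1 and 39.3 CPM in the VD Jak1 KO libraries, below all of 55.5, 55.1 and 52.2 CPM in VD wt. In the ZL set Jak1 KO 4 stood at 130.5 CPM, above every wt library (72.1, 94.4 and 76.6 CPM), and Jak1 KO 5 and 6 were at 75.2 and 46.7 CPM. The log2 fold change was -0.17 (SE 0.22, 95% interval -0.63 to 0.30, edgeR adjusted p = 0.945).

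Isg20 was at 18.7, 15.5 and 18.3 CPM in VD Jak1 KO and 20.5, 39.6 and 23.8 CPM in VD wt libraries. In the ZL set Jak1 KO 4 again stood above every wt library, at 63.8 CPM against 38.3, 51.4 and 37.0 CPM in wt, while Jak1 KO 5 and 6 were below all of them at 26.5 and 24.6 CPM. Its log2 fold change was -0.40 (SE 0.26, 95% interval -0.96 to 0.15, edgeR adjusted p = 0.945). Without Jak1 KO 4 Bst2 had a log2 fold change of -0.36 (SE 0.15, edgeR adjusted p = 0.762) and Isg20 one of -0.66 (SE 0.19, adjusted p = 0.294). Since that library holds the highest values of both genes, leaving it out moves both downwards by construction.

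**Figure D2:**
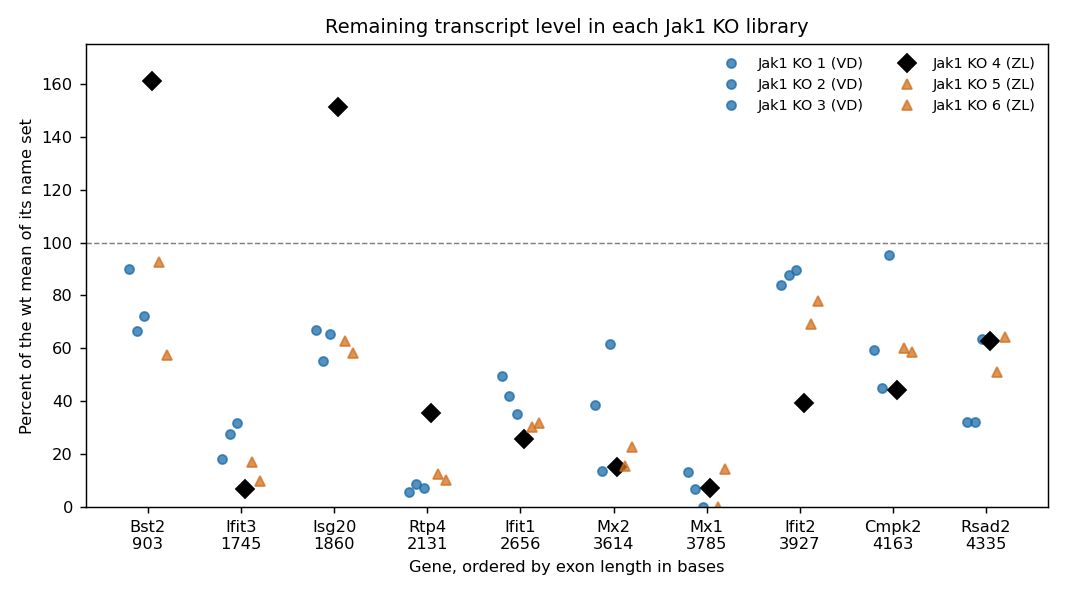
Level of each gene in each Jak1 KO library as a percentage of the mean of the 3 wt libraries of its name set, with genes ordered from left to right by exon length in bases. Jak1 KO 4 (black diamonds) is at 161% for Bst2 and 151% for Isg20 and at 39.5% for Ifit2, while the other 5 libraries lie below the dashed line at 100% for every gene.

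The same library did not stand high for every member. Jak1 KO 4 held 6.85% of the ZL wt mean for Ifit3, 25.9% for Ifit1, 39.5% for Ifit2 and 44.5% for Cmpk2, the lowest of the 3 ZL Jak1 KO libraries in each. Mx2 was also lowest there (15.3%), with Mx1 (7.36%) and Rsad2 (62.6%) between the other ZL libraries. It held 161% for Bst2, 151% for Isg20 and 35.7% for Rtp4, the highest of the 3. The exon lengths of these last genes are 903, 1860 and 2131 bases, and those of Ifit3, Ifit1, Ifit2 and Cmpk2 are 1745, 2656, 3927 and 4163 bases. Mx2, also lowest there, has 3614 bases, and Mx1 and Rsad2, which were not, have 3785 and 4335 bases. Summed markers of other cells were also highest of all 12 libraries in Jak1 KO 4 for B cells (143 CPM), T and NK cells (195 CPM), monocytes and macrophages (976 CPM) and erythroid cells (5637 CPM). They were not highest there for plasmacytoid dendritic cells (225 CPM), plasma cells (235 CPM), neutrophils (260 CPM) and megakaryocytes (883 CPM). LT-HSC markers were the lowest of all 12 libraries there (2715 CPM). When each library's exon length trend was entered as an offset, an alternative added after the data were seen, the log2 fold change was -0.36 for Bst2 and -0.55 for Isg20, and the 5 members called lower were the same. The part of the other cell types in these values was not tested.

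Rtp4, a chaperone that carries receptors to the cell surface and restricts viruses, had the smallest p of the members. The gene is annotated at chr16:23520291-23614222 on the plus strand, and 296 of its 2131 exon bases overlap those of Gm45338 on the same strand. It had 16, 16 and 17 raw counts in the VD Jak1 KO libraries, against 304, 234 and 231 in VD wt, or 1.28, 1.95 and 1.59 CPM against 20.6, 26.2 and 20.2 CPM. Its ZL levels were 28.6, 9.92 and 8.12 CPM in Jak1 KO and 62.6, 92.2 and 85.0 CPM in wt. The groups were apart within both sets, with Jak1 KO 4 the highest of the 6. By edgeR Rtp4 was 7.99-fold lower, at a log2 fold change of -3.00 (SE 0.36, adjusted p = 0.00076). Without Jak1 KO 4 it was 10.7-fold lower (-3.42, edgeR adjusted p = 9.67e-06). Since that library holds the highest Jak1 KO value of Rtp4, leaving it out enlarges the fold change by construction. Each of the 12 fits lacking 1 library called Rtp4 lower (edgeR adjusted p up to 0.00412). Of the 4 members with ISRE core matches in the promoter stretches printed above, edgeR called Ifit1 and Ifit3 lower but not Rsad2 and Bst2. DESeq2 and limma-voom also called Rsad2 lower, and Cmpk2, whose window held no match. Rtp4, Mx1 and Mx2, called lower by edgeR, had no promoter window, so the motif cannot be set against their calls.

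**Figure D3:**
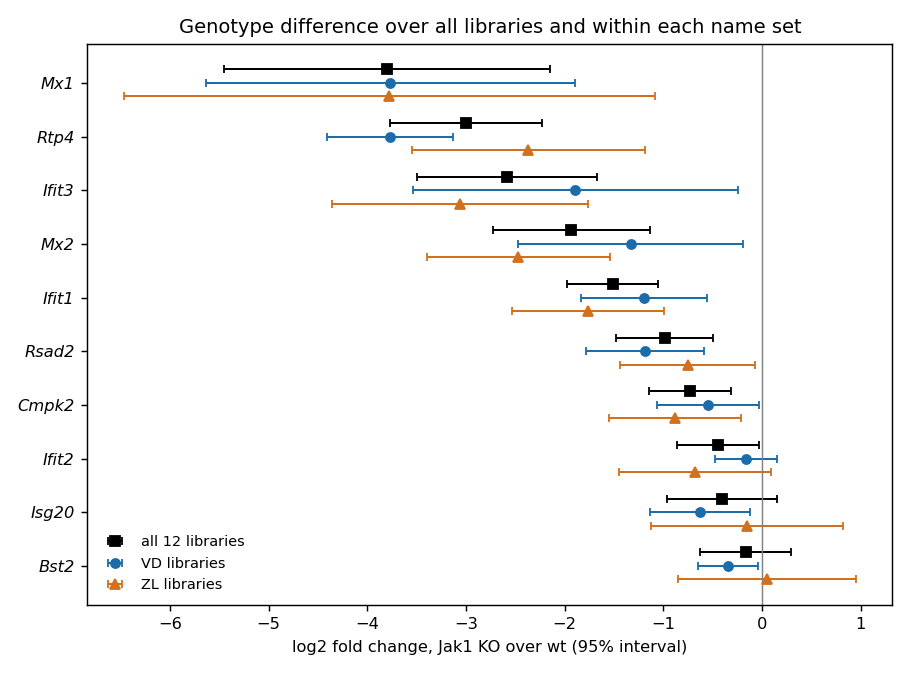
Log2 fold change of each gene, Jak1 KO over wt, with a 95% interval derived from edgeR's F test. Squares give all 12 libraries, circles VD libraries alone and triangles ZL libraries alone. The points run from -3.80 for Mx1 to -0.17 for Bst2 over all libraries, and the intervals of the name sets overlap for every gene.

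Taken set by set, log2 fold changes were below 0 for all 10 members in VD and for 9 of 10 in ZL, where that of Bst2 was 0.05. With 3 libraries a group, only Rtp4 passed in VD (log2 fold change -3.77, SE 0.30, edgeR adjusted p = 1.06e-05), where 0.760% of 12903 genes were called lower. In ZL 0 members and 0 of 13859 genes passed with edgeR, a background of 0%. At an unadjusted p under 0.05, 9 members were lower in VD and 7 in ZL, against 7.15% and 1.05% of all genes. DESeq2 and limma-voom were not run within the sets. The difference of the genotype effect between ZL and VD was tested as an interaction, which called 0 members and 0% of 13184 genes with edgeR. Rtp4 was the 1 member with an unadjusted interaction p under 0.05 (182 genes, 1.38%, had one), its log2 fold change being 1.43 less negative in ZL (SE 0.60, edgeR unadjusted p = 0.0316, adjusted p = 0.975). Without Jak1 KO 4 that difference was 0.66 (SE 0.36, edgeR unadjusted p = 0.0901).

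For part of the members the name sets also differed in level within a genotype. Among wt libraries, every ZL library exceeded every VD library for 6 members (Ifit1, Ifit2, Ifit3, Cmpk2, Bst2 and Rtp4), as for 35.1% of all genes tested. The ratio of ZL to VD wt means was 3.58 for Rtp4, 2.89 for Ifit1, 2.51 for Ifit3 and 1.13 for Mx1. Among Jak1 KO libraries this arrangement held for 4 members (Ifit1, Rsad2, Isg20 and Rtp4), a count near the share of all genes, 31.4%. Without Jak1 KO 4 it held for Ifit2 and Cmpk2 as well. Leaving out a library can only add members, and the share of all genes was not taken for that case. The ratio of ZL to VD Jak1 KO means for Rtp4 was 9.67, or 5.61 without Jak1 KO 4. Cell markers also differed between the name sets. The 9 neutrophil markers (7 tested) summed in VD to 737 to 1420 CPM in Jak1 KO and 548 to 1429 CPM in wt, and in ZL to 95.4 to 260 CPM in Jak1 KO and 140 to 163 CPM in wt. The 7 erythroid markers (5 tested) summed in VD to 914 to 1075 CPM in Jak1 KO and 856 to 918 CPM in wt, and in ZL to 2859 to 5637 CPM in Jak1 KO and 2309 to 3058 CPM in wt. No neutrophil marker was at 0 counts throughout a genotype, Hba-a1 of the erythroid list was at 0 in both, and the part of these cells in the set difference was not tested. Spread within a group followed these sets: over the 6 wt libraries the highest value was 4.57 times the lowest for Rtp4 and 4.6 times for Ifit1, against 1.30 and 1.5 times within VD and 1.47 and 1.91 times within ZL. Mx1 varied most among wt libraries (8.55 times), and its extremes, wt 4 and wt 6, were both ZL libraries.

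**Figure D4:**
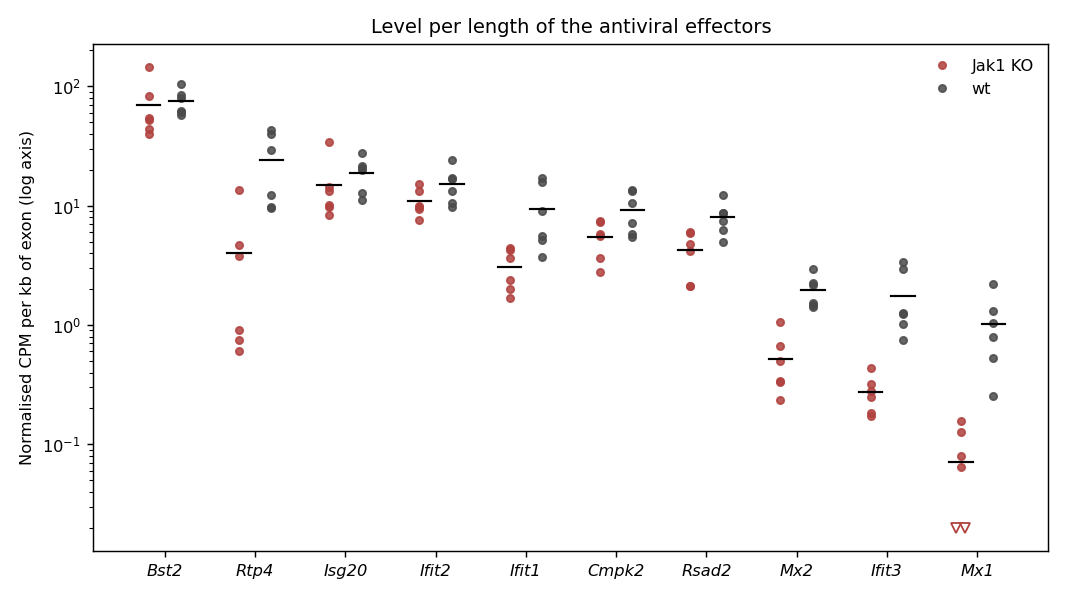
Normalised CPM per kb of exon, on a log axis, of each gene in the 6 Jak1 KO libraries (left of each pair) and 6 wt libraries (right), ordered by the wt mean, with bars at the means. The open triangles at the bottom are the 2 Jak1 KO libraries with 0 Mx1 counts, drawn at an arbitrary height, and Bst2 is highest in both groups.

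Levels of different genes were compared per length, as normalised CPM per kb of exon. In Jak1 KO libraries Bst2 was highest at 69.5 ± 39.8, followed by Isg20 (15), Ifit2 (10.9), Cmpk2 (5.41), Rsad2 (4.2), Rtp4 (4.02), Ifit1 (3.06), Mx2 (0.522), Ifit3 (0.274) and Mx1 (0.0714 CPM per kb). In wt libraries Bst2 was also highest at 74.9 ± 18.2, above 96.4% of the 13064 tested genes with an exon length, and was followed by Rtp4 (24.0), Isg20 (18.9), Ifit2 (15.2), Ifit1 (9.35), Cmpk2 (9.26), Rsad2 (8.02), Mx2 (1.95), Ifit3 (1.76) and Mx1 (1.02 CPM per kb). In that wt order the ranges over libraries overlapped between all neighbours except Bst2 and Rtp4, and Rsad2 and Mx2. The place of Rtp4 moved with the libraries used. Within VD it was at 0.754 CPM per kb in Jak1 KO, below Ifit1, and at 10.5 in wt, below Isg20 and Ifit2. Within ZL it was at 7.29 CPM per kb in Jak1 KO and at 37.5 in wt, below only Bst2 among the wt means. Without Jak1 KO 4 the Jak1 KO mean of Rtp4 over both sets was 2.15 CPM per kb, below the 2.95 of Ifit1, and Isg20 (11.1) was below Ifit2 (11.5). Using the longest transcript in place of all exons put Isg20 above Rtp4 and Cmpk2 above Ifit1 in wt and Rtp4 above Rsad2 in Jak1 KO, all neighbours whose ranges overlap.

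**Figure D5:**
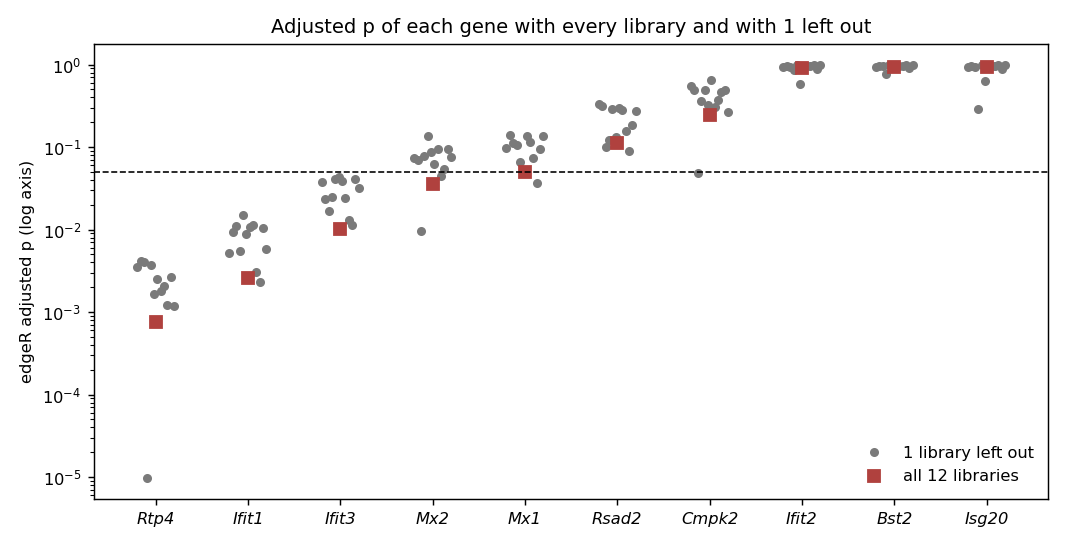
edgeR adjusted p of each gene, on a log axis, with all 12 libraries (squares) and with 1 library left out in turn (circles), genes ordered by the value with all libraries. All circles of Rtp4, Ifit1 and Ifit3 lie under the dashed threshold of 0.05, most of those of Mx2 and Mx1 lie above it, and all of those of Rsad2, Ifit2, Bst2 and Isg20 do.

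Other genes of the pathway were read from the same fit. Of the receptor and signalling chain, Irf9, a DNA-binding partner of STAT proteins, was lower, at 47.0 ± 7.42 CPM in Jak1 KO and 123 ± 36.5 CPM in wt libraries (SD, n = 6 each). Stat2 stood at 43.6 CPM in Jak1 KO and 69.5 CPM in wt and did not pass (edgeR adjusted p = 0.945). Of 9 regulators 2 were lower, Irf7, which drives interferon gene expression (log2 fold change -2.06), and Usp18, a brake on the receptor that also removes ISG15 (-1.23, SE 0.23). Irf1 missed the threshold (-0.66, edgeR adjusted p = 0.0621).

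Among 34 tested effectors outside the 10 members, 9 were lower, 0 higher and 25 did not pass, with a median log2 fold change of -0.62 against -0.0060 for all genes. Over all genes tested 0.432% were lower, the share to set beside the counts of each of these lists. The 3 with the smallest p were Ifi44 (14.8 ± 7.96 CPM in Jak1 KO and 61.3 ± 35.1 CPM in wt), Oas2, which makes the activator of RNase L (0.238 ± 0.348 and 25.1 ± 14.2 CPM), and Phf11d (2.13 ± 1.17 and 18.9 ± 4.72 CPM). Of 7 tested sensors of viral nucleic acid 1 was lower, Dhx58, a regulator of RIG-I-like receptors (25.8 ± 2.38 CPM in Jak1 KO and 45.7 ± 10.3 CPM in wt, edgeR adjusted p = 0.0398). The RNA sensors Ddx58 and Ifih1 had log2 fold changes of -0.75 and -0.43 and did not pass (edgeR adjusted p = 0.521 and 0.945).

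The members were not equally alike across the 12 libraries. After centring log2 CPM within name sets, the Pearson correlation of a member with the mean of the other 9 was highest for Ifit1 (0.93), Rtp4 (0.92), Mx2 (0.92) and Ifit3 (0.90). It was 0.86 for Rsad2, 0.85 for Mx1 and 0.75 for Cmpk2, and lowest for Isg20 (0.50), Ifit2 (0.48) and Bst2 (0.31). These values describe 12 libraries that share the genotype difference and the exon length trend. Of 12757 other genes with a mean of at least 1 CPM, the 5 most like the mean of the 10 members were Ifi27l1 (0.97), Irf7 (0.97), Oasl2 (0.97), Ifi44 (0.96) and Iigp1 (0.96). Their log2 fold changes were -2.03 for Ifi27l1, -2.06 for Irf7, -1.23 for Oasl2, -2.01 for Ifi44 and -2.63 for Iigp1.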

How the data were processed

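Per the labels' protocols, LT-HSC RNA was isolated with Trizol and went through the standard TruSeq v2 poly-A protocol. The authors deposited 1 table of raw counts by gene and library. STAR 2.3.0e, featureCounts, Subread and mm10 are named in the submitters' processing notes. Neither annotation nor strand setting is given in the sources used here. Gene positions and exon lengths are from GENCODE M21 on GRCm38 (23077 of 23472 symbols matched, 1207 as older symbols).

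Counts were tested in R 4.3.3 with edgeR 4.0.16: filterByExpr, TMM, a term for name set and one for genotype, the quasi-likelihood F test, and Benjamini-Hochberg adjustment over every tested gene (threshold 0.05). All fold changes divide Jak1 KO by wt. Log2 CPM had a prior count of 2, which understates differences of low genes. DESeq2 1.42.0 and limma 3.58.1 were alternatives. On simulated counts of the 6 against 6 comparison (12969 genes), edgeR recovered 46% of genes lowered by 1 and 83% of those lowered by 2 on the log2 scale, with 5.15% false calls, against 23.6% for DESeq2 and 7.46% for limma-voom. For the interaction (12963 genes) it recovered 2% and 35%. Each comparison was simulated in a single draw, with 1 mean per gene over all libraries. The simulated counts held no difference between name sets and no exon length trend, both of which these data show. The rates therefore describe simpler data, and may not hold here or rank the tools.

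Members, lists, tests and alternatives were chosen with earlier results of these data known. All 10 members are named. Up to 3 genes of each pathway list were named by smallest p (the signalling chain is given in part, since an item of it is not reported here), and the 5 nearest patterns by correlation. Relatives of the Ifit genes are named for read sharing. No libraries of a group and name set agreed within sampling noise (lowest chi-square per degree of freedom 14.3). Per-length orders within name sets, and per-length levels and set ratios without Jak1 KO 4, were added after the data were seen.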

Additional observations from a re-analysis of the deposited data

Results flagged for a closer look

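Sets of 6 libraries of 1 genotype were looked at, 20 in all (10 genes, 2 genotypes). In 2 of them a library's gap to its nearest neighbour was large for the range of the group. Each set mixes VD and ZL libraries, which differ in level for part of the members, and all genes share the same libraries. The nominal rate of 1 in 20 therefore does not apply, and whether the flags exceed chance was not tested. The flagged library was Jak1 KO 4 in both. Isg20 stood at 63.8 CPM there, against 15.5 to 26.5 CPM in the other Jak1 KO libraries and 20.5 to 51.4 CPM in wt. Rtp4 stood at 28.6 CPM there, against 1.28 to 9.92 CPM in the other Jak1 KO libraries and 20.2 to 92.2 CPM in wt.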

How the results depend on the processing

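The count of members called lower was 5 of 10 and stayed at 5 without a filter on low counts, with a filter of 1 CPM in 6 libraries and with the offset on exon length. It was 4 with DESeq2's size factors or without Rn45s, where Mx1 was lost. It was 7 with the DESeq2 Wald test and with limma-voom (Rsad2 and Cmpk2 added), 3 without Jak1 KO 4, Jak1 KO 6 and wt 6 together (Mx1, Ifit1 and Rtp4), 1 in VD libraries alone, 0 in ZL libraries alone and 0 without a name set term. It ranged from 3 to 5 when 1 library was left out. It was 3 (Ifit1, Ifit3 and Rtp4) without any one of Jak1 KO 1, 2, 4, 5 or 6 or wt 1, 2, 5 or 6. Over all genes, 58 passed in either direction. The count was 126 with DESeq2, 220 with limma-voom, 14 without a name set term, 149 in VD alone, 0 in ZL alone and 96 without those 3 libraries (Jak1 KO 4, Jak1 KO 6 and wt 6), and from 39 to 77 with 1 library left out.

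The log2 fold change of Bst2 turned to 0.051 in ZL alone. That of Jak1 was 0.18 and turned to -0.046 without Jak1 KO 6; over the fits that left out 1 library it ranged from -0.046 to 0.35. Of 240 values of single members under alternatives, 195 kept their direction and side of the threshold, 39 lost the call and 5 gained it. Only the 5 members called with all libraries could lose a call, and all 39 losses were theirs. The 240 values also include the 5 members not called, so they do not measure how firm the calls are. The interaction called 0 genes under each of its alternatives. The cause of these shifts was not tested. With replicate number as a replicate block, 72 genes and 5 members passed, and no member's call changed. Correlations of same-numbered libraries were 0.043 to 0.67, below 0.1 for numbers 1 and 5, and only 3 of the 6 Jak1 KO libraries were closest to the wt library of their number, so the numbers were not taken as pairs. Counting depth limits Mx1 and Ifit3 most, at 27 and 53 counts summed over the 6 Jak1 KO libraries.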
